A study of Mus musculus with 11 samples.

Results

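The unfolded protein response and the integrated stress response were followed through 10 genes, Atf4, Atf5, Ddit3, Trib3, Asns, Hspa5, Xbp1, Herpud1, Chac1 and Fgf21, of the 35584 genes listed for whole mouse heart. They were chosen by name, as a set of known regulators and targets of both responses. The hearts came from male mice aged 8 to 12 weeks, and each of the 11 libraries was 1 sample. WT mice (n = 3) received diphtheria toxin at 0.01 µg per g body weight, 3 injections a week for 3 weeks. CD169-DTR mice (n = 3, called macrophage-depleted) received the same course and had been depleted for 21 days; in this line the diphtheria toxin receptor is carried by the CD169 (Siglec1) locus, so toxin kills the cells that express it. The Mertk-KO mice (n = 2) are labelled as knockouts of the efferocytosis receptor Mertk, and the LXR-DKO mice (n = 3; LxRalpha_beta DKO in the labels) lack both liver X receptors, encoded by Nr1h3 and Nr1h2. The labels give toxin for the WT and CD169-DTR mice only, so genotype and toxin cannot be told apart where either knockout is compared with WT or with macrophage-depleted hearts. Macrophage-depleted against WT and Mertk-KO against LXR-DKO are the comparisons within 1 toxin status as labelled. The labels do not say in which cells the Mertk and LXR genes were deleted.

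Both responses guard protein production. When unfolded protein builds up in the endoplasmic reticulum (ER), the sensors IRE1, ATF6 and PERK raise chaperones and degradation machinery and slow translation. PERK shares its target, the initiation factor eIF2 alpha, with kinases that sense amino acid shortage, viral RNA or haem shortage, and phosphorylated eIF2 alpha favours translation of ATF4, which activates genes for amino acid supply, oxidative defence and, under lasting stress, cell death. Cardiomyocytes renew a large protein mass and use both responses. Much of this control acts on translation, splicing and protein processing, so transcript levels show only part of it; spliced and unspliced Xbp1, for example, are not told apart in values per gene.

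The regulatory letters of the group are shown first, because several members hold motifs known from these responses. RefSeq promoter windows (GRCm38.p6, 250 bases before to 50 bases after the annotated start) were found for all 10 genes, 11 windows in all, and 4 motifs were searched on both strands. The C/EBP-ATF response element (CARE, TGATGNAA), bound by ATF4 dimers, was present in 5 genes, against 3.97% of the 32851 promoters in the table. The genes were chosen as known regulators and targets, so a higher share than in all promoters tests nothing. Its stretches are printed with 16 bases on each side, on the gene's own strand, with the motif in capitals. It lies on the opposite strand in all except Asns.
Asns, chr6:7693209-7693248, minus strand: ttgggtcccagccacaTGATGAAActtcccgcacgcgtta
Trib3, chr2:152344023-152344062, minus strand: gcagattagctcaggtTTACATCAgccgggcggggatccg
Chac1, chr2:119351033-119351072, plus strand: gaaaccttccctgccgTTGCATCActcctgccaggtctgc
Fgf21, chr7:45615606-45615645, minus strand: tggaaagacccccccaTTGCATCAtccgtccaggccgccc
Herpud1, chr8:94386301-94386340, plus strand: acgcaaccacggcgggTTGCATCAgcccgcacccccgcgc

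The whole windows of Hspa5 and Herpud1 are shown because both genes are textbook ER stress targets, yet the 4 groups ranked differently for each. Hspa5 holds an ER stress response element (ERSE, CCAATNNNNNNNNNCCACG, in 0.119% of promoters), which begins 65 bases before the start, and the core of the unfolded protein response element (UPRE, TGACGTG, in 2.01% of promoters), 157 bases before it. Herpud1 holds the related ERSE-II (ATTGG and CCACG parted by 1 base, in 0.0365% of promoters), 52 bases before the start, besides its CARE, 112 bases before it. Each motif is in capitals. None of the 4 motifs was found in the windows of Atf4, Atf5, Ddit3 or Xbp1, which says only that these letters are not in those windows.
Hspa5, chr2:34771840-34772139, plus strand: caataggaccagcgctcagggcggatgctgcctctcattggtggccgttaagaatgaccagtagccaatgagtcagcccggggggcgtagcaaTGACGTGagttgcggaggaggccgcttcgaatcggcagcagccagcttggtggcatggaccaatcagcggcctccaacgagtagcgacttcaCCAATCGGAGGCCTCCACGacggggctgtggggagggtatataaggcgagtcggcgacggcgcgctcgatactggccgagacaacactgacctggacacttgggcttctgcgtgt
Herpud1, chr8:94386179-94386478, plus strand: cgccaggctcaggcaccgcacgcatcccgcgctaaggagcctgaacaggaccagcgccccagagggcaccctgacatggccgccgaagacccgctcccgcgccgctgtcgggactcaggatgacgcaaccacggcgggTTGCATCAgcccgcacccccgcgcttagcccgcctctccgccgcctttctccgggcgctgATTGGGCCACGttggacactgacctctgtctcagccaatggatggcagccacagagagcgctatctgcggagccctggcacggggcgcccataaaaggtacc

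Library totals were 10938600 to 20722295 estimated reads. The 8 cardiomyocyte markers summed to 807005 to 1016197 normalised counts in every library, and 5 hepatocyte markers to at most 4.88. Siglec1 was 53.4 to 64.3 normalised counts in WT hearts and 33.8, 2.12 and 0.719 in the macrophage-depleted hearts, so library 1 of that group kept much of the transcript. The median log2 difference of 8 resident macrophage markers from the WT mean was -0.63, -1.13 and -2.33 in the same order, and fewer macrophages and less RNA per macrophage cannot be told apart in bulk tissue. Nr1h3 (25.9 to 29 against 155 to 173 in WT) and Nr1h2 (85.2 to 99.6 against 525 to 543) were low in LXR-DKO hearts. Mertk stood at 75.7 and 89.4 in the libraries labelled Mertk-KO and at 130 to 147 in WT, but also at 75.4 to 125 in macrophage-depleted and 93.6 to 103 in LXR-DKO hearts. Its transcript level therefore does not set the Mertk-KO libraries apart, and the labels do not say which part of the gene was deleted, so that group rests on its label. The Mertk-KO libraries resembled each other least of any pair within a group (r = 0.959 on the log2 scale). The labels name no litter or batch and do not say that each library was a separate mouse, so p-values measure the spread between these samples.

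Transcript levels of the members differed widely, from percentile 65.4 (Asns) to percentile 99.1 (Hspa5) of the listed genes for the 9 tested. Per length, in normalised TPM averaged over 11 libraries, Hspa5 stood at 297 (range 210 to 370), above Herpud1 at 99.3 (77.3 to 149) and Atf4 at 41.6 (34 to 56.9), and these ranges did not overlap. Xbp1 (27.7 TPM), Atf5 (21.5 TPM) and Ddit3 (20.1 TPM) followed with ranges that overlapped each other's, and that of Xbp1 reached the lowest values of Atf4. Chac1 (2.73 TPM), Trib3 (1.76 TPM) and Asns (1.5 TPM) formed a low group with overlapping ranges, the highest of them, 3.95 TPM for Chac1 in an LXR-DKO heart, lying below the lowest value of Ddit3, 15.2 TPM. Thus the ER chaperone and the ER degradation factor led, the transcription factors were intermediate, and the classical ATF4 output genes were scarce in all 4 groups.

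**Figure D1:**
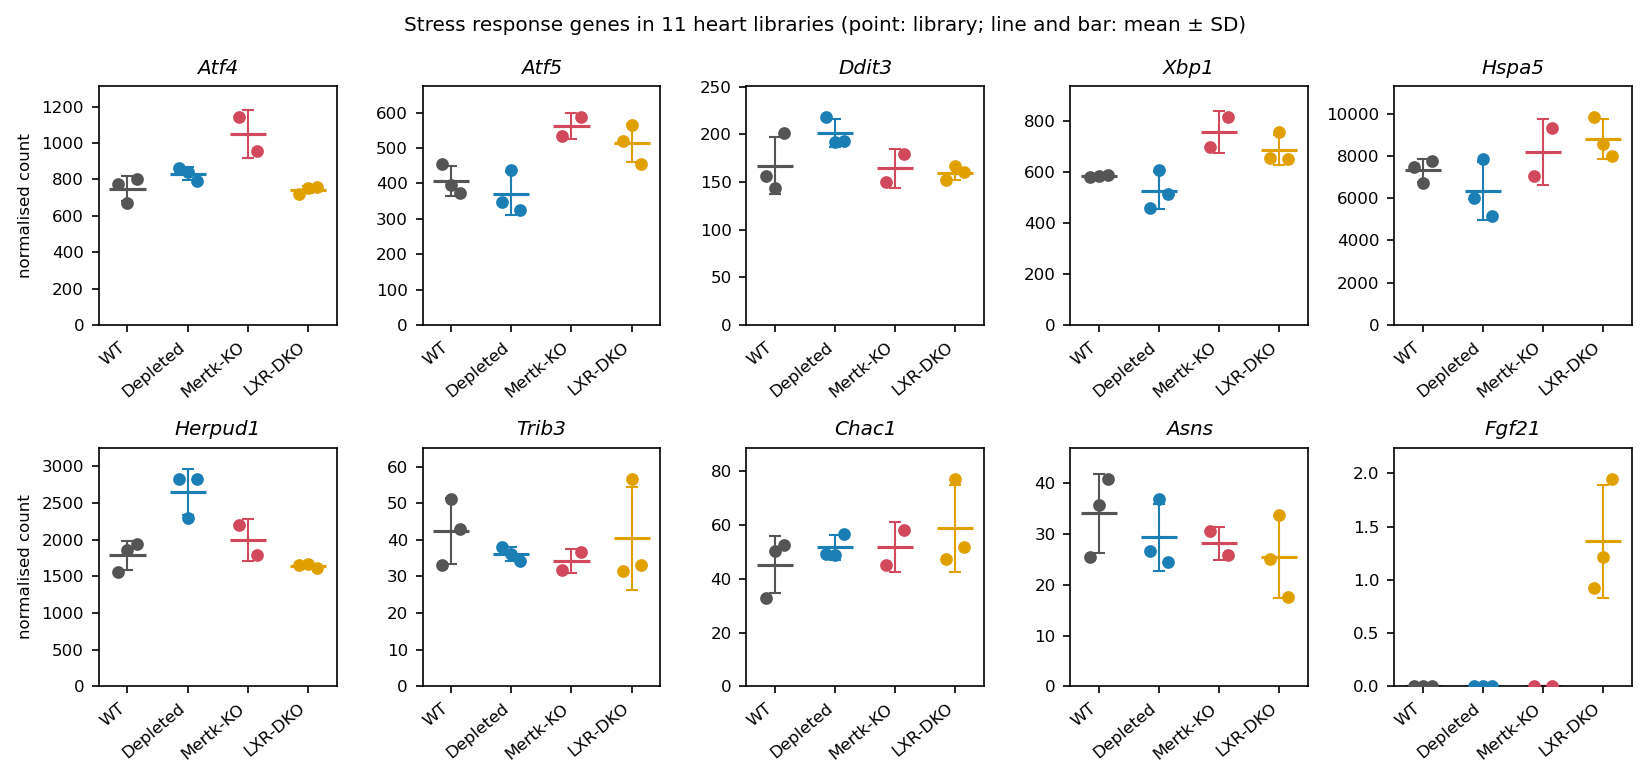
Normalised count (vertical axes, each from 0) of the 10 genes in each heart library, by group; points are libraries, and the line and bar give mean ± SD. Herpud1 is highest in the 3 macrophage-depleted hearts and Atf4 in the 2 Mertk-KO hearts, while Fgf21 is at 0 in 8 libraries.

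Differences were tested with limma on log2(normalised count + 1) in 1 model of the 4 groups, over the 13884 genes that averaged 10 or more normalised counts, and a gene was called at a Benjamini-Hochberg adjusted p below 0.05. Fgf21 did not pass the minimum, so 9 members were tested. No member was called in macrophage-depleted against WT hearts, where 0.238% of all genes were called (33 of 13884, with 1046 at an unadjusted p below 0.05), and none in LXR-DKO against WT hearts, where 0.418% were (58, with 1601 unadjusted). In Mertk-KO against WT hearts 1 of 9 was called against 9.27% of all genes, a share near the background. The direct comparisons called 4 of 9 members between macrophage-depleted and Mertk-KO hearts (21.0% of all genes), 1 between macrophage-depleted and LXR-DKO hearts (3.24%) and 1 between Mertk-KO and LXR-DKO hearts (2.46%). Comparisons that share a group are not independent of one another. Groups did not overlap in normalised counts for 1, 3 and 3 of 9 members in macrophage-depleted, Mertk-KO and LXR-DKO hearts against WT. Over all genes tested the shares were 16.7%, 42.6% and 22.7%. Macrophage-depleted hearts did not overlap Mertk-KO hearts for 5 members (45.4% of all genes) or LXR-DKO hearts for 6 (28.3%). Between the 2 knockout groups it was 2 members (31.5%).

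**Figure D2:**
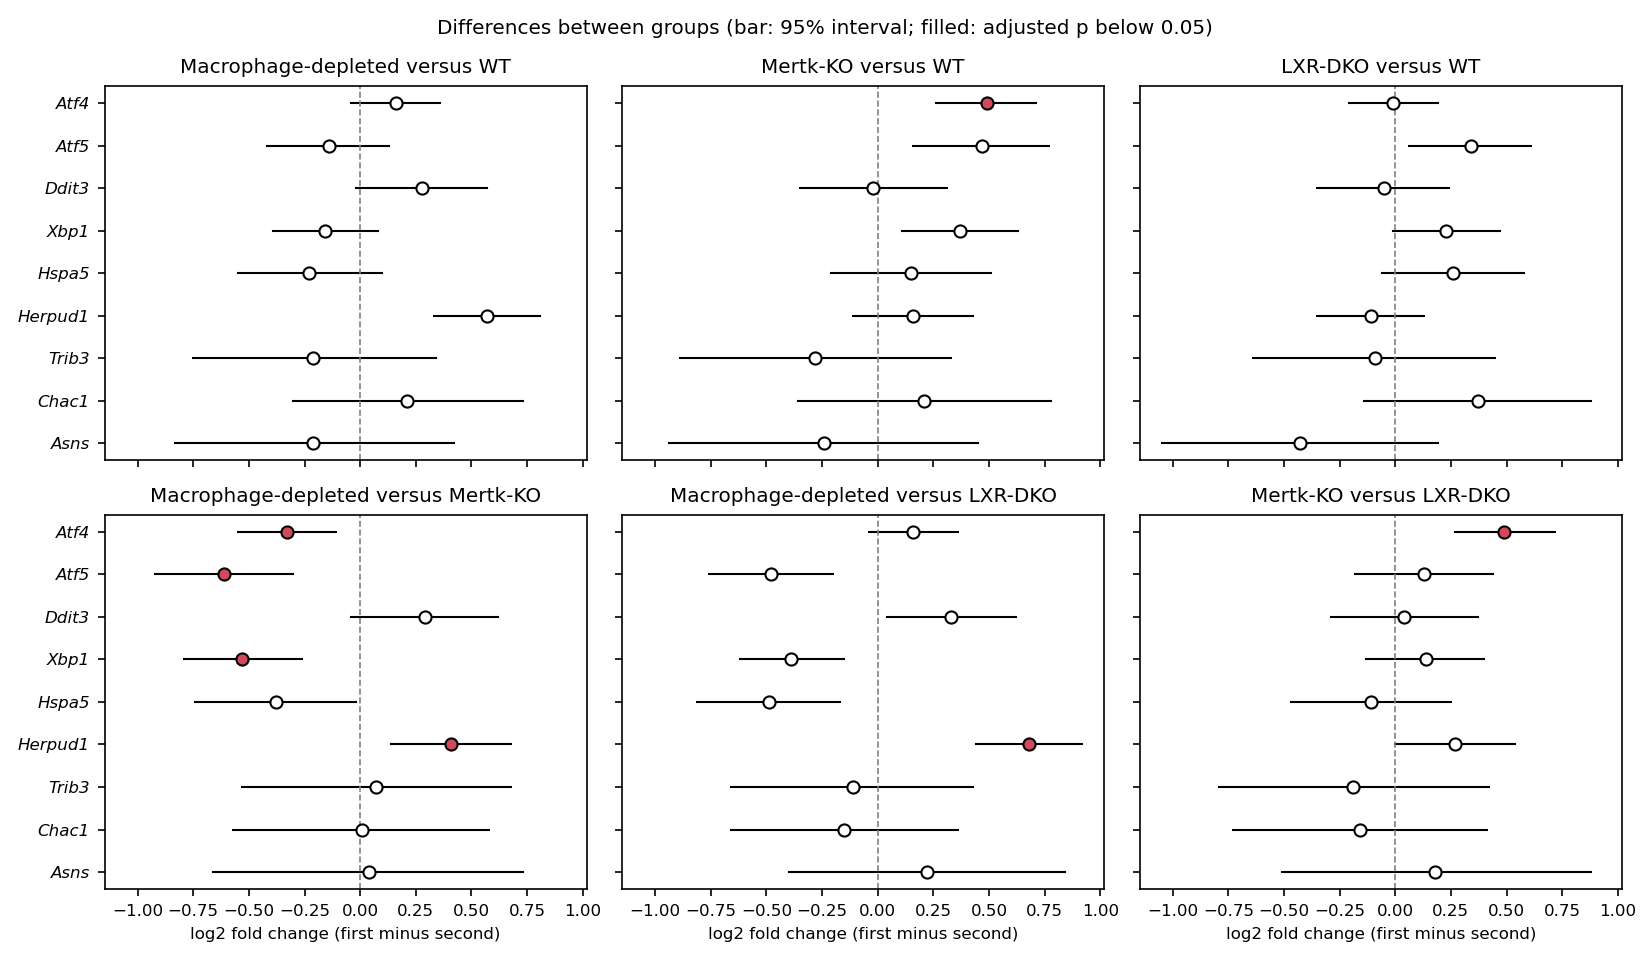
Log2 fold change (horizontal axes, first group minus second, on the log2(normalised count + 1) scale) of 9 genes in the 6 comparisons; bars are 95% intervals and filled points have an adjusted p below 0.05. Filled points are few: Atf4 in 3 comparisons, Herpud1 in 2, and Atf5 and Xbp1 in 1 each.

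Atf4 encodes the transcription factor at the centre of the integrated stress response, and its transcript was highest in Mertk-KO hearts. Its normalised counts were 775, 671 and 802 in WT, 863, 844 and 791 in macrophage-depleted, 1143 and 957 in Mertk-KO, and 722, 753 and 757 in LXR-DKO hearts. Both Mertk-KO libraries lay above the other 9 libraries, and macrophage-depleted and WT hearts overlapped. Atf4 was at 140% of the WT mean in Mertk-KO hearts (log2 fold change 0.49, SE 0.10, adjusted p = 0.0215 by limma) and above LXR-DKO hearts by the same log2 amount (0.49, adjusted p = 0.0363). It was lower in macrophage-depleted than in Mertk-KO hearts (log2 fold change -0.33, adjusted p = 0.0409). Against WT, the macrophage-depleted difference was 0.16 (95% interval -0.04 to 0.36) and the LXR-DKO difference was -0.01 (-0.21 to 0.19), neither called.

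The Atf4 calls lay near the threshold, and each was lost in some of the alternatives. Some were lost without a library outside the comparison, at an unchanged log2 fold change. Leaving out WT 1 (adjusted p = 0.0608), WT 2 (0.0735), WT 3 (0.0594) or Mertk-KO 1 (0.0588) ended the call against WT. It also ended in a fit of the 2 groups alone (0.104), with library quality weights (0.134) and with the trend with transcript length removed (0.0893). It held in 17 of 24 alternatives, with log2 fold changes of 0.36 to 0.61. The calls against LXR-DKO and macrophage-depleted hearts each held in 9 of 24. Of these, the LXR-DKO call was lost without WT 1 or 3, any macrophage-depleted library, Mertk-KO 1 or any LXR-DKO library (adjusted p from 0.0515 to 0.116). The macrophage-depleted call was lost without the same libraries (0.0502 to 0.224), and without Mertk-KO 1 its log2 fold change was -0.20 in place of -0.33. With 1 Mertk-KO library left, that library is assumed to vary like the other groups.

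Other transcripts moved with Atf4 in the Mertk-KO hearts. All 7 cytosolic heat shock genes were called higher there than in WT, beside 9.27% of all genes called. Their summed normalised counts were 24982 and 36531 against 17591 to 19043 in WT, and Mertk-KO 1 stood higher in that list's median. The 11 immediate early genes summed to 7000 and 8200 against 2323 to 6647 in WT, and 2 of them were called higher. Over the 11 libraries, the log2 values of Abcf2 (r = 0.931) and Jun (r = 0.929) followed Atf4 most closely. This is among tested genes with an established name. Jun is itself an immediate early gene, at 1998 and 865 normalised counts in the Mertk-KO hearts and 568 to 861 elsewhere. The 6 atrial markers summed to 1746 and 3199 in the Mertk-KO hearts against 3696 to 26327 in WT. Their sums were 3361 to 6841 in macrophage-depleted and 1700 to 17900 in LXR-DKO hearts, so low sums were not particular to Mertk-KO. None of the 5 tested atrial markers was called. The part of handling, heat shock, tissue sampled or library differences in the Atf4 result was not tested.

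Atf5 encodes a relative of ATF4 that is translated under the same control and is linked to mitochondrial proteostasis. Its normalised counts were 454, 395 and 372 in WT, 346, 439 and 326 in macrophage-depleted, 535 and 587 in Mertk-KO, and 521, 564 and 456 in LXR-DKO hearts. In normalised counts both knockout groups lay above every WT library, at the closest by 456 against 454, and the macrophage-depleted range overlapped that of WT. In TPM, LXR-DKO 3 (21.4) lay below WT 1 (22.1). Against Mertk-KO hearts the macrophage-depleted hearts were lower (log2 fold change -0.61, SE 0.14, adjusted p = 0.0141), a call that held in 22 of 24 alternatives and was lost in the fit of the 2 groups alone (0.083) and with library weights (0.0998). Without macrophage-depleted 1 the log2 fold change was -0.57 (adjusted p = 0.0368). The difference of macrophage-depleted from LXR-DKO hearts was -0.48 (95% interval -0.76 to -0.20, adjusted p = 0.0639). It was called in 6 of 24 alternatives: library weights (0.00871), the replicate block (0.0482), and without macrophage-depleted 2 (0.036), Mertk-KO 1 (0.0342), Mertk-KO 2 (0.0344) or LXR-DKO 3 (0.0449). Against WT the differences were 0.47 in Mertk-KO (0.16 to 0.77, adjusted p = 0.0591) and 0.34 in LXR-DKO hearts (0.06 to 0.61, adjusted p = 0.366), and neither was called. The Mertk-KO difference was called on the deposited scale (0.0433) and without macrophage-depleted 2 (0.0425).

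Atf5 lies at chr7:44812256-44816658 (GRCm38), 0.258 Mb from Nr1h2, a targeted locus of the LXR-DKO mice. It overlaps Nup62 by 571 bases and Il4i1 by 272 bases on the opposite strand. Whether counting used strand is not stated, so reads of these genes may not be fully separate. Of the other members, Chac1 lies 9.34 Mb from Mertk and 11.7 Mb from Siglec1 on chromosome 2. Trib3 and Hspa5 lie on chromosome 2 as well, at 21.3 Mb or more from Siglec1, Mertk and Nr1h3.

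Xbp1 encodes the transcription factor activated by IRE1 splicing, and its pattern over libraries was close to that of Atf5 (r = 0.93 over 11 libraries, as a description). Its normalised counts were 580, 584 and 588 in WT, 460, 606 and 514 in macrophage-depleted, 698 and 815 in Mertk-KO, and 654, 756 and 650 in LXR-DKO hearts. The WT libraries were nearly equal, and both knockout groups lay above them. Macrophage-depleted hearts were lower than Mertk-KO hearts (log2 fold change -0.53, SE 0.12, adjusted p = 0.0135), which held in 21 of 24 alternatives and was lost without Mertk-KO 2 (0.0501), in the fit of the 2 groups alone (0.0966) and with library weights (0.0874). Without macrophage-depleted 1 the log2 fold change was -0.43 (adjusted p = 0.034). Other Xbp1 differences were not called: 0.37 in Mertk-KO against WT (0.11 to 0.63, adjusted p = 0.0725), 0.23 in LXR-DKO against WT (-0.01 to 0.47) and -0.39 in macrophage-depleted against LXR-DKO hearts (-0.62 to -0.15, adjusted p = 0.0748). The last was called with library weights (0.0172) and without macrophage-depleted 2 (0.0486), Mertk-KO 1 (0.0341) or Mertk-KO 2 (0.0342), and the first without Mertk-KO 1 (0.0477).

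Hspa5 encodes BiP, the most abundant ER chaperone and the protein that holds the 3 sensors inactive. Its normalised counts were 7499, 6727 and 7764 in WT, 5997, 7852 and 5181 in macrophage-depleted, 7072 and 9308 in Mertk-KO, and 9843, 8579 and 7984 in LXR-DKO hearts. In normalised counts every LXR-DKO library lay above every WT and every macrophage-depleted library. In TPM, LXR-DKO 2 and 3 (307 and 305) lay below WT 3 (318) and macrophage-depleted 2 (317). No Hspa5 difference was called in the main test. The closest was macrophage-depleted against LXR-DKO, at -0.49 (95% interval -0.81 to -0.17, adjusted p = 0.092). It was called without macrophage-depleted 2 (adjusted p = 0.0398), Mertk-KO 1 or Mertk-KO 2 (0.0385 each), and with library weights (0.00702). Macrophage-depleted against Mertk-KO gave -0.38 (95% interval -0.74 to -0.02, adjusted p = 0.123 by limma). That difference was called without macrophage-depleted 2 (-0.54, adjusted p = 0.042), and without Mertk-KO 1 it was -0.57. Against WT the interval was -0.55 to 0.10 in macrophage-depleted, -0.21 to 0.51 in Mertk-KO and -0.06 to 0.58 in LXR-DKO hearts. Each of these 3 includes 0.

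The rest of the ER folding machinery was read in 17 chaperones and folding enzymes. None was called against WT in any group. Between macrophage-depleted and LXR-DKO hearts 3 of 17 were called lower and none higher, beside 3.24% of all genes called, with a list median of -0.29 against 0.00 over all genes. Between macrophage-depleted and Mertk-KO hearts 5 of 17 were called lower and none higher, a share near the 21.0% of all genes called, with a median of -0.21 against 0.02. The 3 were Manf, a secreted ER stress factor (log2 fold change -0.98, adjusted p = 0.0235), the lectin chaperone Calr (-0.46, 0.0428) and Hyou1, a BiP cochaperone and exchange factor (-0.47, 0.0451), and these names were taken after the values were seen. The Calr call was lost without any WT library, macrophage-depleted 1 or 3, or LXR-DKO 1 or 2 (adjusted p from 0.066 to 0.177), and that of Hyou1 without the same libraries or LXR-DKO 3 (0.0591 to 0.158). Both calls were also lost with no filter (0.078 and 0.0748), from the TPM table (0.0721 and 0.0938) and in the fit of the 2 groups alone (0.0511 and 0.0538). With the replicate block the values were 0.0509 and 0.0682. The Calr call was also lost with the length trend removed (0.0699).

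For Manf, normalised counts were 391, 337 and 394 in WT, 255, 355 and 247 in macrophage-depleted, 412 and 737 in Mertk-KO, and 631, 573 and 480 in LXR-DKO hearts. Its macrophage-depleted library 2 stood with the WT hearts, as that library did for Hspa5 and Xbp1. The Manf call against LXR-DKO was lost without macrophage-depleted 1 (adjusted p = 0.0692) or 3 (0.0903) and without LXR-DKO 1 (0.106) or 2 (0.0995). Over the 11 libraries Hyou1 followed Hspa5 nearly as closely as any tested gene with an established name (r = 0.947), after Hhex (r = 0.957).

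**Figure D3:**
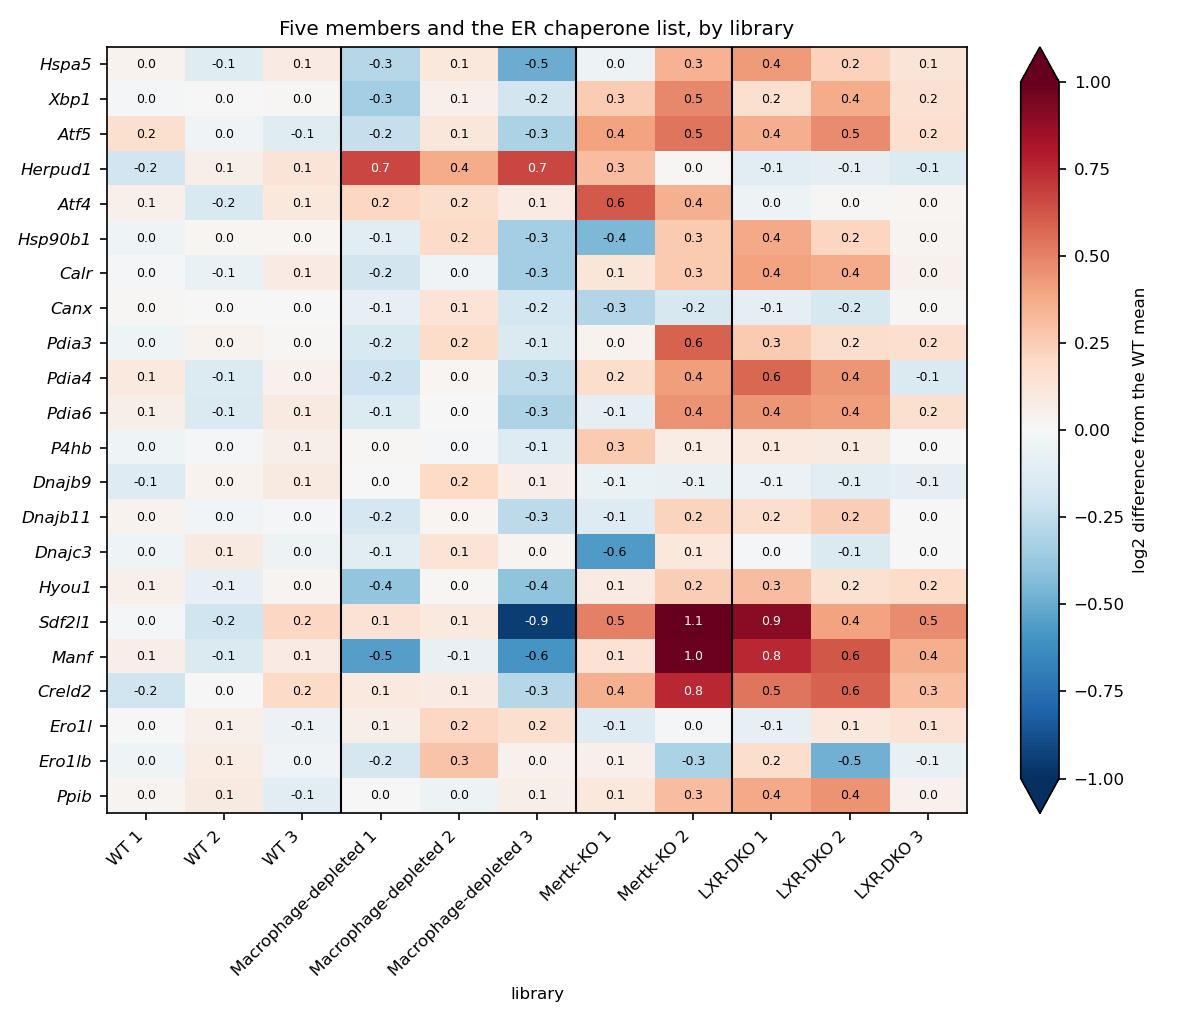
Log2 difference of each library from the WT mean (colour and printed value) for 5 members and 17 ER chaperones and folding enzymes; columns are the 11 libraries, and vertical lines part the groups. Manf, Sdf2l1 and Creld2 vary most, and Herpud1 runs opposite to Hspa5 in macrophage-depleted libraries 1 and 3.

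Herpud1 encodes an ER membrane protein that helps assemble the degradation complex for misfolded ER proteins, and its transcript was highest after macrophage depletion. Its normalised counts were 1558, 1852 and 1945 in WT, 2831, 2294 and 2826 in macrophage-depleted, 2199 and 1792 in Mertk-KO, and 1653, 1668 and 1612 in LXR-DKO hearts. All 3 macrophage-depleted libraries lay above the other 8 libraries. Herpud1 was higher in macrophage-depleted than in LXR-DKO hearts (log2 fold change 0.68, SE 0.11, adjusted p = 0.00724). That call held in 24 of 24 alternatives, with adjusted p from 0.000613 to 0.04. It was also higher than in Mertk-KO hearts (0.41, adjusted p = 0.0367), a call that held in 15 of 24.

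Against WT, macrophage-depleted hearts stood at 148% of the WT mean for Herpud1, but the difference was not called (log2 fold change 0.57, SE 0.11, 95% interval 0.33 to 0.81, adjusted p = 0.0757 by limma, unadjusted p = 0.000253). It became a call with library weights (0.00731) and without Mertk-KO 1 (0.0213) or Mertk-KO 2 (0.0216), and without any one of the 6 libraries compared its adjusted p was 0.0578 to 0.362. Without macrophage-depleted 1, the library that kept Siglec1, the log2 fold change was 0.52 (0.177) against WT and 0.63 (0.0319) against LXR-DKO. The Mertk-KO call was lost without WT 2 (0.0526), macrophage-depleted 1 (0.0931) or 3 (0.105), Mertk-KO 2 (0.184) or LXR-DKO 1 (0.0549), and without Mertk-KO 2 its log2 fold change was 0.26 in place of 0.41. A difference of 0.27 between Mertk-KO and LXR-DKO hearts (0.00 to 0.54) was not called.

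Of 12 genes of ER-associated degradation, the process Herpud1 serves, 11 were tested. None was called in macrophage-depleted hearts against WT (median 0.02; 0.238% of all genes called) or against LXR-DKO (0.01; 3.24%). Against Mertk-KO hearts 1 was called, Edem3, higher by 0.91 (adjusted p = 0.00835), with a list median of -0.01 and 21.0% of all genes called. Circadian clock genes stood apart in the same libraries: the 11 clock genes summed to 13257 to 14615 normalised counts in macrophage-depleted hearts against 7696 to 10674 in WT, and none was called against WT. Against LXR-DKO hearts 4 clock genes were called higher and 1 lower (3.24% of all genes called), and against Mertk-KO hearts 6 higher and 1 lower (21.0%). The 6 adipocyte markers summed to 20.9 to 34.1 in macrophage-depleted hearts against 79.7 to 169 in WT, 73.3 to 135 in Mertk-KO and 116 to 319 in LXR-DKO. Of the 4 tested, none was called lower against WT, 2 were against Mertk-KO and 4 against LXR-DKO hearts, and the macrophage markers given above were also lowest there. Of tested genes with an established name, Hdac4 (r = 0.958), a class IIa histone deacetylase, followed Herpud1 most closely. Mid1ip1 (r = 0.952), a regulator of lipogenesis, came next. Hdac4 was at 469 to 564 normalised counts in the depleted hearts and 294 to 412 elsewhere. The part of clock time or of tissue makeup in the Herpud1 values was not tested. Over the 11 libraries Herpud1 ran against Hspa5 (r = -0.77) and Atf5 (r = -0.65) and with Ddit3 (r = 0.67), as a description of libraries that share their groups.

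Ddit3 encodes CHOP, the factor linked to cell death under lasting ER stress, and it was not called in any comparison of the main test. Its normalised counts were 156, 144 and 201 in WT, 218, 192 and 193 in macrophage-depleted, 150 and 179 in Mertk-KO, and 152, 167 and 160 in LXR-DKO hearts. In normalised counts macrophage-depleted hearts lay above both knockout groups and overlapped WT through 1 WT library. In TPM, Mertk-KO 2 (22.4) lay above macrophage-depleted 3 (21.3). In the main test the macrophage-depleted difference was 0.28 against WT (95% interval -0.02 to 0.57) and 0.33 against LXR-DKO hearts (0.04 to 0.62, adjusted p = 0.194). Against Mertk-KO hearts it was 0.29 (-0.04 to 0.62, adjusted p = 0.184). With the length trend removed the last was 0.49 and was called (0.0468). Ddit3 overlaps Mars by 68 bases on the opposite strand.

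Trib3, Chac1 and Asns are classical ATF4 output genes, and all 3 hold the CARE letters printed above. None was called in any comparison, and Mertk-KO hearts, where Atf4 was highest, overlapped WT hearts for each of them. Trib3, a pseudokinase that feeds back on ATF4, had normalised counts of 33, 51.2 and 43 in WT hearts beside 31.9 and 36.6 in Mertk-KO. For Chac1, which degrades glutathione, they were 33, 50.2 and 52.4 in WT beside 45.1 and 58.2 in Mertk-KO. For Asns, asparagine synthetase, they were 25.5, 35.8 and 40.9 in WT beside 30.5 and 25.9 in Mertk-KO.

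Their low counts made the intervals wide. In Mertk-KO against WT hearts these ran from -0.89 to 0.33 for Trib3, from -0.36 to 0.78 for Chac1 and from -0.94 to 0.45 for Asns. The Atf4 difference of 0.49 had an interval of 0.26 to 0.71, which overlaps those of all 3 genes. Differences between genes were not tested. In LXR-DKO hearts library 2 was the highest for all 3 genes, with 56.7 for Trib3, 77.2 for Chac1 and 33.8 for Asns, against 31.5 and 33.2, 47.2 and 51.7, and 25 and 17.6 in the other 2 libraries. In macrophage-depleted hearts Trib3 was 34.1 to 38, Chac1 48.8 to 56.8 and Asns 24.5 to 36.8 normalised counts, all overlapping WT.

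Fgf21 encodes a stress hormone made mainly by the liver and known as an ATF4 target there. It had 0 estimated reads in all 8 WT, macrophage-depleted and Mertk-KO libraries, a total of 123103041 reads, which allows a level of up to 0.0244 CPM (3 reads). In LXR-DKO hearts 4 reads among 45570823 were assigned to it, spread over all 3 libraries, or 0.0878 CPM with an exact Poisson interval of 0.0239 to 0.225. Intervals and limits cover counting error only. At these single reads Fgf21 was below the minimum for the test. With no filter, Fgf21 entered the limma fit only through these LXR-DKO reads, with every other library at 0. Its adjusted p-values for LXR-DKO hearts there (0.0372 against macrophage-depleted, 0.108 against WT and 0.0681 against Mertk-KO) therefore cannot decide whether the level differs. The fitted log2 difference of 1.22 in each depends on the pseudocount. The gene lies 1.06 Mb from Nr1h2 on chromosome 7, and hepatocyte markers were at or near 0 in every group.

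The wider pathways were read in 92 other genes, of which 89 were tested. Against WT none was called in macrophage-depleted or LXR-DKO hearts (10 and 12 had an unadjusted p below 0.05), and 5 were called in Mertk-KO hearts. These 5 of 89 stand against 9.27% of all genes called in that comparison. The 7 genes of the eIF2 alpha kinases, their substrate and its phosphatases gave no call against WT. In the direct comparisons Eif2ak4, the amino acid sensor GCN2, was higher in macrophage-depleted than in Mertk-KO hearts (0.53, adjusted p = 0.021), and Ppp1r15a, the stress-induced phosphatase subunit GADD34, was lower (-0.53, 0.0299); both were named after the values were seen. The Eif2ak4 call was lost without macrophage-depleted 2 (0.065), from the TPM table (log2 fold change 0.29, 0.185) and with the length trend removed (0.31, 0.159). It was also lost in the fit of the 2 groups alone (0.104) and with library weights (0.154), and without Mertk-KO 1 its log2 fold change was 0.39. The Ppp1r15a call was lost without macrophage-depleted 2 (0.088) or 3 (0.0854), with no filter (0.0512) and from the TPM table (0.0663). It was also lost in the fit of the 2 groups alone (0.0867), with library weights (0.196) and with the length trend removed (0.0525). Without Mertk-KO 2 its log2 fold change was -0.48.

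Atf3, an early stress factor downstream of ATF4 that also responds to mechanical and handling stimuli, rose in Mertk-KO hearts. It was at 29.8, 29.7 and 80.7 normalised counts in WT, 64.8, 53.7 and 35.3 in macrophage-depleted, 296 and 213 in Mertk-KO, and 66.7, 77.2 and 57.6 in LXR-DKO hearts. The Mertk-KO libraries lay far above all others (log2 fold change 2.57 against WT, SE 0.39, adjusted p = 0.00973). The call held without any single library, and was lost in the fit of the 2 groups alone (0.0804) and with library weights (0.0931). It was the 1 call among 11 tested ATF4-linked transcription factors and stress regulators in Mertk-KO against WT hearts, with a list median of 0.17 against -0.01 over all genes and 9.27% of all genes called. In macrophage-depleted against WT hearts the smallest p of this list was that of Cebpb (0.87, adjusted p = 0.221), called with library weights (0.031).

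Slc3a2, the shared chain of amino acid exchangers, was at 564 and 487 normalised counts in Mertk-KO hearts and 381 to 416 in WT (0.39, adjusted p = 0.0326). It was also at 497 to 506 in macrophage-depleted (0.32 against WT, adjusted p = 0.238) and 480 to 546 in LXR-DKO hearts (0.35, 0.166), above every WT library; these differences were called with library weights (0.0402 and 0.00708). Without any WT library the Mertk-KO call was lost, at adjusted p of 0.0743 without WT 1, 0.103 without WT 2 and 0.0889 without WT 3. Without Mertk-KO 1 its log2 fold change was 0.28. The call was also lost from the TPM table (0.198), in the fit of the 2 groups alone (0.118) and with library weights (0.176). It was lost too with the replicate block (0.0625) and with the length trend removed (0.0857). Wars, a tryptophanyl-tRNA synthetase that is also induced by interferon, was at 743 and 1750 in the Mertk-KO hearts and 532 to 587 in WT (1.01, adjusted p = 0.0315). Its call was lost without WT 1 (0.0754), WT 2 (0.0926), WT 3 (0.0838) or LXR-DKO 1 (0.0515). Other losses came with no filter (0.0582), from the TPM table (0.0677), in the fit of the 2 groups alone (0.146), with library weights (0.0719) and with the replicate block (0.0569). Without Mertk-KO 2 the log2 fold change was 0.39 and without Mertk-KO 1 it was 1.62. It was the only call among 12 synthetases, whose list median was 0.11.

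Mbtps2, the protease that completes ATF6 cleavage, and Edem3, a mannosidase of ER-associated degradation, were the pair called lower in Mertk-KO hearts. Mbtps2 was at 168 and 151 normalised counts against 221 to 225 in WT (-0.48, adjusted p = 0.0259), and Edem3 at 208 and 347 against 436 to 497 (-0.80, adjusted p = 0.0277). Both calls were lost without WT 1 (0.071 and 0.0769), WT 2 (0.0784 and 0.0671) or WT 3 (0.0793 and 0.0806), and that of Edem3 also without Mertk-KO 1 (-0.43, 0.0834). With the length trend removed the log2 fold change was -0.31 for Mbtps2 (0.118) and -0.53 for Edem3 (0.104). Both calls were also lost from the TPM table (0.15 and 0.0531) and in the fit of the 2 groups alone (0.0991 and 0.112). The same held with library weights (0.152 and 0.0946) and with the replicate block (0.0608 and 0.0605).

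Creb3l1, an ER-bound factor of the ATF6 kind known for collagen secretion in bone and fibroblasts, was the lowest-p sensor in the depleted hearts. It was at 84, 81.9 and 70.2 normalised counts in WT, 54.9, 51.6 and 45.3 in macrophage-depleted, 96.9 and 95.9 in Mertk-KO, and 84.3, 83.2 and 90.8 in LXR-DKO hearts. The depleted hearts lay below all others. The difference was not called against WT (-0.63, adjusted p = 0.142) and was called against Mertk-KO (-0.92, 0.00433) and LXR-DKO hearts (-0.76, 0.0133). The LXR-DKO call was lost without macrophage-depleted 3 (0.063), LXR-DKO 1 (0.054) or LXR-DKO 2 (0.05), and from the TPM table (-0.51, 0.0635). The Mertk-KO call was lost in the fit of the 2 groups alone (0.0627) and with library weights (0.0527). With those weights the difference from WT was called (-0.66, 0.0237). Over all 89 genes, 3 were called higher and 16 lower in macrophage-depleted than in Mertk-KO hearts, and 0 higher and 4 lower than in LXR-DKO hearts, against 21.0% and 3.24% of all genes called in those comparisons.

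**Figure D4:**
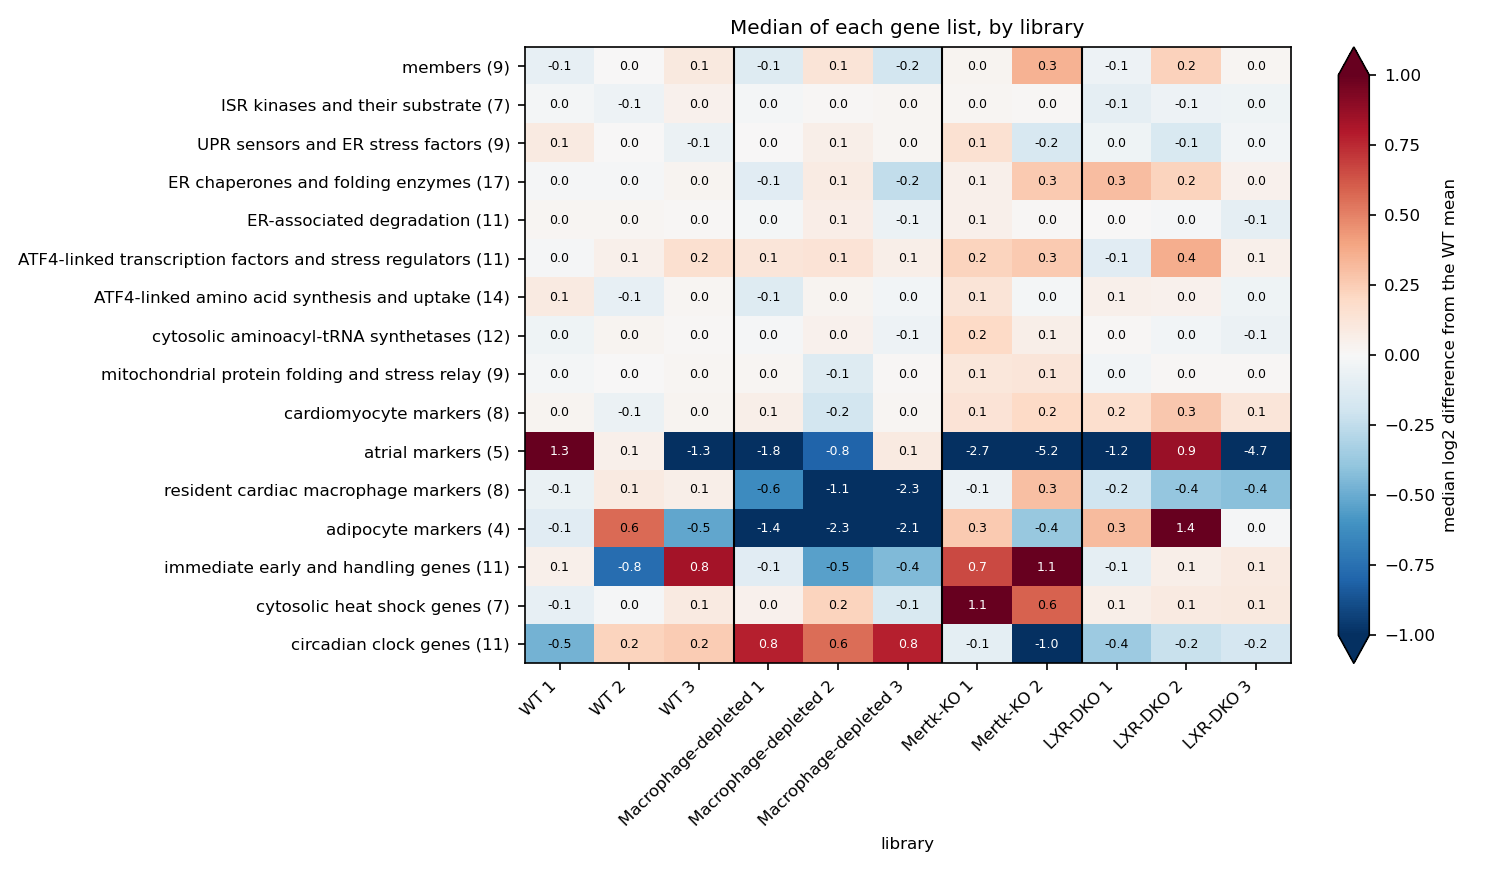
Median log2 difference from the WT mean (colour and printed value) of the members, 8 pathway lists and 7 of the marker lists in each of the 11 libraries, with the number of genes tested in parentheses. The pathway lists stay within 0.36 of the WT mean, while macrophage, immediate early, heat shock, clock, adipocyte and atrial genes move further, the atrial markers to -5.22 in Mertk-KO 2 and -4.74 in LXR-DKO 3.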

How the data were processed

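RNA of whole hearts was amplified with a NuGen Ovation Single Cell kit before Illumina library preparation, per the labels' protocols. Build GRCm38 and the tools RSEM 1.2.20, kallisto 0.43.1, cutadapt and CASAVA 1.8.2 are listed in the submitters' processing notes, with no roles. The authors deposited 2 tables of normalised signal: values on a CPM-like scale of an effective library size, with 0.5 reads added to each gene, and normalised TPM. Of low values, 57.2 to 61.5% per library came out as whole reads within 0.01 read, not nearly all, so no count test was used. Estimated reads were recovered from the added 0.5 and rescaled to the mean effective library size (normalised counts). limma 3.58.1 (R 4.3.3) with a mean-variance trend was fitted to log2(normalised count + 1) for genes with a mean of at least 10, and was tested on simulated data. Each comparison was repeated under 24 alternatives. Genes were named from the members, their 2 closest genes, and up to 3 called genes of each pathway list per comparison with WT (where none passed, the smallest p), and not all of these are printed. Manf, Calr, Hyou1, Eif2ak4 and Ppp1r15a were named from the direct comparisons instead. The closest genes were sought without predicted gene models, pseudogenes and genes known only by a clone or identifier. The members and lists were chosen with earlier results of these data known. Protein sequences were not used here.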

Additional observations from a re-analysis of the deposited data

How the results depend on the processing

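Over 54 differences of the 9 tested members and 24 alternatives, 1266 values were obtained; 36 changed sign, none of them called. The 7 calls of the main test held in 117 of 168 values. The counts of genes called moved more. Macrophage-depleted against WT gave 33 genes, and 15 on the deposited scale, 17 with no filter, 4 from the TPM table, 66 in the fit of the 2 groups alone and 219 with library weights, where 1 member and 4 pathway genes were called in place of 0. Mertk-KO against WT gave 1287 genes, and 597 with no filter, 378 from TPM, 1 in the fit of the 2 groups, 12 with library weights and 305 with the length trend removed. There, members numbered 2 on the deposited scale and 0 with the 2 groups alone, weights or length trend removed, and pathway genes 1 from TPM and 0 with the 2 groups alone or weights, in place of 5. LXR-DKO against WT gave 58 genes, and 25 on the deposited scale, 124 in the fit of the 2 groups and 593 with weights, with 1 and 5 pathway genes in the last pair in place of 0. Macrophage-depleted against Mertk-KO gave 2911 genes, and 1577 from TPM, 146 in the fit of the 2 groups, 438 with weights and 1544 with the length trend removed; members numbered 2 with no filter and 0 in the fit of the 2 groups or with weights. Macrophage-depleted against LXR-DKO gave 450 genes, and 278 with no filter, 218 from TPM and 2043 with weights. Its members numbered 4 with weights and 2 with no filter, of which Fgf21 entered only through its few LXR-DKO reads. Mertk-KO against LXR-DKO gave 341 genes, and 150 with no filter, 66 from TPM, 20 in the fit of the 2 groups, 162 with voom weights and 19 with library weights; its 1 member fell to 0 with no filter, TPM, 2 groups, weights or length trend removed. The cause was not tested. Leaving out each library gave 3 to 84, 70 to 2399, 31 to 117, 1379 to 3238, 140 to 1228 and 72 to 2167 genes in the same order, 0 to 1, 0 to 2, 0 to 0, 2 to 4, 1 to 4 and 0 to 1 members, and 0 to 0, 1 to 13 and 0 to 0 pathway genes against WT.

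Replicate numbers did not pair the libraries: same-numbered libraries correlated at -0.09 to 0.11 in their deviations. With the replicate block, Mertk-KO against WT gave 391 genes and 1 pathway gene, Mertk-KO against LXR-DKO 119 genes and 0 members, and macrophage-depleted hearts 2 members each against Mertk-KO and LXR-DKO.

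With 2 or 3 libraries a group, the low counts of Trib3, Chac1 and Asns left wide intervals, and Fgf21 lay at the limit of detection.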
